A study of Mus musculus with 20 samples.

Results

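Noto, Shh, Foxa2, Foxa1, Chrd and Nog, 6 genes that mark or act in the embryonic node and the notochord, were followed by symbol in the deposited counts of single mouse embryos. All 6 were among the 22729 genes of the embryo table. The libraries came from whole C57BL/6 embryos at E8.5, of which 6 were Zmym2-/- and 6 were Zmym2+/+. Each genotype had 3 male and 3 female embryos. The Zmym2- allele carries a CRISPR mutation in its first coding exon that shifts the reading frame early. Embryos came from crosses of heterozygous parents and were chosen for having no visible abnormality. For context, V6.5 embryonic stem cell lines (a C57BL/6 by 129 hybrid line) were sequenced as embryoid bodies (EBs, aggregates that begin to differentiate) at day 3 and as undifferentiated cells (mESCs), from 2 clonal Zmym2-/- and 2 control lines that received a nontargeting guide. The mESCs were cultured in medium with serum and LIF.

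The node is a small pit at the tip of the primitive streak, and the cells that leave it form the notochord, a rod under the future spinal cord. The homeobox factor Noto and the forkhead factors Foxa2 and Foxa1 act within these cells, of which Foxa2 is needed for the node to form, while Foxa1 and Foxa2 are also found in the gut endoderm. Shh is the secreted signal by which the notochord and the floor plate pattern the neural tube, and Chrd and Nog are secreted antagonists that bind BMP ligands. The node also bears motile cilia, whose beat sets the left-right axis.

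In GENCODE M21 (GRCm38) each member is a protein-coding gene. Noto (ENSMUSG00000068302) lies at chr6:85423886-85428877 on the plus strand and Chrd (ENSMUSG00000006958) at chr16:20733127-20742384 on the plus strand. Foxa2 (ENSMUSG00000037025) lies at chr2:148042877-148046969, Foxa1 (ENSMUSG00000035451) at chr12:57540628-57546916, Shh (ENSMUSG00000002633) at chr5:28456815-28467256 and Nog (ENSMUSG00000048616) at chr11:89300638-89302332, all on the minus strand. RefSeq promoter sequences of GRCm38.p6 were held for 4 of the 6 members, with 3 alternative starts for Foxa2. The 250 bases before the start are shown for Noto and Chrd, the members with the largest positive differences between genotypes, and for Foxa1, the member that differed in the cell lines. The Noto window is chr6:85423636-85423885 (plus strand), the Chrd window chr16:20732877-20733126 (plus strand) and the Foxa1 window chr12:57546112-57546361 (minus strand), each written 5′ to 3′ along its gene.
Noto: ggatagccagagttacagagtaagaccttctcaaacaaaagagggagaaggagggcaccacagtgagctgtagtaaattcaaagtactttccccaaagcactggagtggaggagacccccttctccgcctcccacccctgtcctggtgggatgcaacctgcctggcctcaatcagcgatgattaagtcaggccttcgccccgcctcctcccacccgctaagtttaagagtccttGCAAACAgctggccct
Chrd: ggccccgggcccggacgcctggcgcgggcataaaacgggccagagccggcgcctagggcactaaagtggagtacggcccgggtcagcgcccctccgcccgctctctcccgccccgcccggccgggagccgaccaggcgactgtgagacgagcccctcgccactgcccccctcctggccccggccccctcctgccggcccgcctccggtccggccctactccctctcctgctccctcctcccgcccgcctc
Foxa1: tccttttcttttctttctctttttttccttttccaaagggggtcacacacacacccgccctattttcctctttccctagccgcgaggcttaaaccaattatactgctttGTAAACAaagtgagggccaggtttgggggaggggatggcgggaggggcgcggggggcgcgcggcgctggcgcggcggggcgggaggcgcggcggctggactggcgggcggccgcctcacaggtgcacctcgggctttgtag
Capitals mark a forkhead motif, searched as TGTTTAC and as TGTTTGC on both strands. The Noto window held 1 match, GCAAACA, which is TGTTTGC on the other strand, at -16 to -10 from the start. The Foxa1 window also held 1 match, GTAAACA, the other strand of TGTTTAC, at -141 to -135. Of 32851 promoter windows of the same length, 4.3% held TGTTTGC and 3.17% held TGTTTAC. The windows of Chrd and of the 3 Foxa2 starts held neither, and no member window held the T-box letters TCACACC, the TEAD letters GGAATG or the GLI letters TGGGTGGTC, which stood in 3.33%, 12.6% and 0.225% of all windows. The Foxa1 window precedes the RefSeq start used there, which lies inside the GENCODE gene. The windows also differed in composition: the Chrd window was 78.0% G or C with 28 CpG dinucleotides, the Foxa1 window 62.0% with 21 and the Noto window 54.8% with 5, against medians of 52.4% and 6 over all windows.

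The embryo libraries held between 38142819 and 64057608 counts, and replicates of a genotype correlated across genes at 0.95 to 0.988. Zmym2 transcripts averaged 47.7 ± 15.5 CPM in Zmym2-/- embryos, against 89.8 ± 27.6 CPM in the Zmym2+/+ group (SD over 6 embryos in both), where CPM are counts scaled to a common library size with TMM factors. This is a log2 fold change of -0.91 with an edgeR adjusted p of 0.226, and the groups overlapped. Reads of a transcript that carries a frameshift are still counted, so this level checks the labels only in part. Across all genes, edgeR's quasi-likelihood test with Benjamini-Hochberg adjustment called 116 genes higher (0.51% of those tested) and 3 lower (0.0132%) in Zmym2-/- embryos at an adjusted p under 0.05. Numbers shared by the embryos' names were read here as litters, of which 3 held both genotypes.

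The length-normalized table of the authors (RPKM) allows levels to be compared between genes. In Zmym2-/- embryos the medians ran from 7.29 RPKM for Nog through 6.12 for Foxa2, 5.67 for Shh, 4.31 for Foxa1 and 1.26 for Noto to 0.556 for Chrd. In Zmym2+/+ embryos the order was the same, with 7.75 RPKM for Nog, 6.41 for Foxa2, 4.87 for Shh, 3.02 for Foxa1, 1.52 for Noto and 0.435 for Chrd. Every pair of neighbours in either order overlapped between embryos. Within single embryos, Foxa1 stood above Noto in 6 of 6 Zmym2+/+ embryos and in 4 of 6 Zmym2-/- embryos. The exceptions were Zmym2-/- embryos 5 and 6.

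None of the 6 members passed the test between genotypes, where 0.524% of all 22729 genes did (edgeR, adjusted p under 0.05). At an unadjusted p under 0.05 there were 3, Noto, Chrd and Nog, where 12% of all genes passed, and DESeq2 likewise called 0 members while 3 had an unadjusted p under 0.05. For none of the 6 did the groups separate fully, which 1.18% of all genes did. A whole embryo was measured at once, so fewer cells of a type and less RNA per cell cannot be told apart in any value here.

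Noto, the homeobox factor of the node and early notochord, was the member with the widest spread. It had 1.23, 2.33, 1.496, 1.002, 16.4 and 33.4 CPM in Zmym2-/- embryos 1 to 6, against 0.497, 1.24, 2.94, 2.58, 2.37 and 2.76 CPM in Zmym2+/+ embryos 1 to 6. Zmym2-/- embryos 5 and 6 lay above every other embryo, and the other 4 lay within the range of the Zmym2+/+ embryos. The lowest of these levels rested on 19 counts and the highest on 2214. The log2 fold change was 2.17 (SE 0.86) with an edgeR adjusted p of 0.378. By edgeR's estimate the biological coefficient of variation of Noto was 0.939, against a median of 0.397 over all genes.

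Chrd, which encodes the BMP antagonist Chordin, followed the same embryos. It had 2.02, 2.58, 1.73, 3.81, 9.76 and 30.3 CPM in Zmym2-/- embryos 1 to 6, against 2.12, 2.09, 3.13, 3.38, 4.34 and 1.81 CPM in Zmym2+/+ embryos 1 to 6. The Zmym2-/- embryos 5 and 6 were again the only ones above the Zmym2+/+ range, and the other 4 overlapped with it or lay just below. The log2 fold change was 1.57 (SE 0.65), with an edgeR adjusted p of 0.382.

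**Figure D1:**
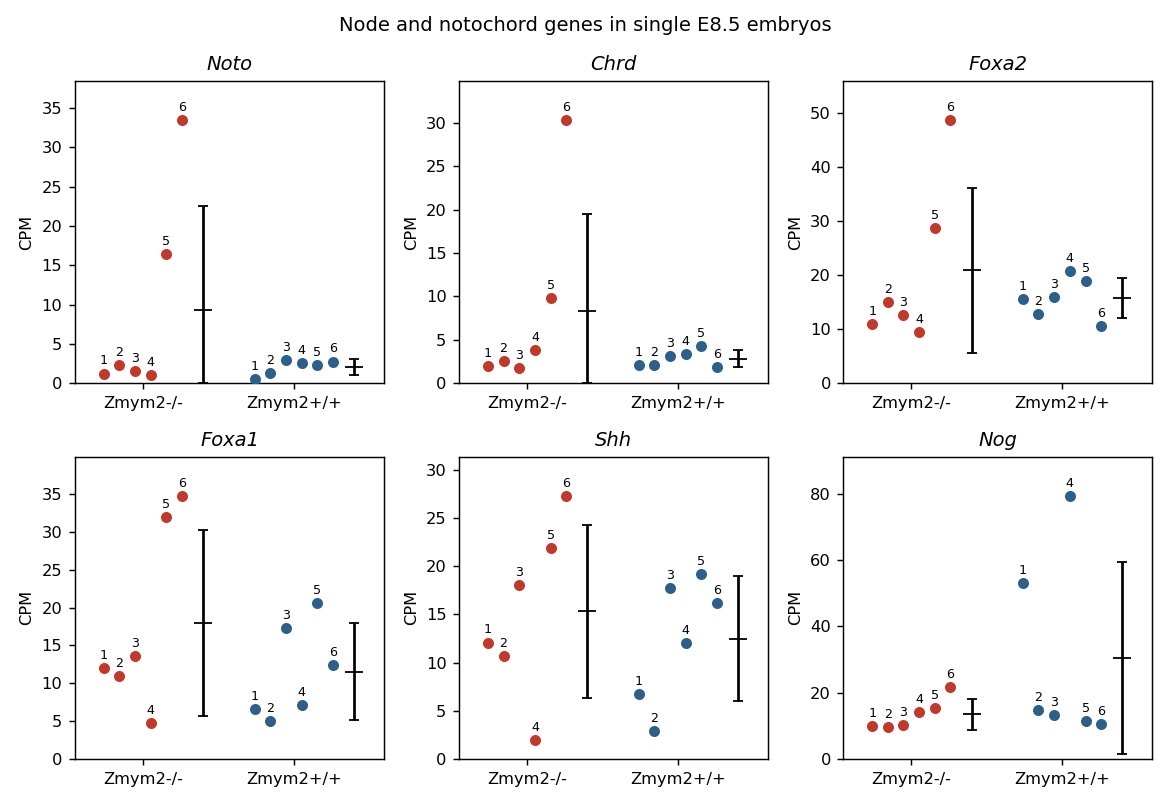
CPM of each member (vertical axes, from 0) in every embryo, Zmym2-/- in red on the left and Zmym2+/+ in blue on the right, with the embryo's number above its point; black bars give the mean and SD of 6 embryos, with the lower end drawn no lower than 0. Zmym2-/- embryos 5 and 6 sit highest for every member but Nog, for which Zmym2+/+ embryos 1 and 4, at 53.1 and 79.2 CPM, sit highest.

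Foxa2, required for node formation, had 10.9, 15.01, 12.6, 9.51, 28.7 and 48.7 CPM in Zmym2-/- embryos 1 to 6, against 15.7, 12.8, 15.98, 20.8, 18.9 and 10.6 CPM in Zmym2+/+ embryos 1 to 6. Outside embryos 5 and 6, the Zmym2-/- values overlapped with those of the Zmym2+/+ embryos, except that of embryo 4, which lay below all of them. The means were 11.995 ± 2.36 CPM (SD, n = 4) in these Zmym2-/- embryos and 15.8 ± 3.76 CPM (SD, n = 6) in Zmym2+/+ embryos. The log2 fold change over all embryos was 0.40 (SE 0.37) with an edgeR adjusted p of 0.688.

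Foxa1, the related forkhead factor of notochord, floor plate and endoderm, had 12.03, 10.99, 13.6, 4.77, 32.0 and 34.7 CPM in Zmym2-/- embryos 1 to 6, against 6.54, 5.06, 17.3, 7.15, 20.7 and 12.4 CPM in Zmym2+/+ embryos 1 to 6. Its log2 fold change was 0.64 (SE 0.47), with an edgeR adjusted p of 0.608. Among Zmym2+/+ embryos alone, the highest value was 4.08 times the lowest for Foxa1, 5.92 times for Noto and 2.39 times for Chrd.

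Shh, the notochord and floor plate signal, had 12.1, 10.7, 18.1, 2.004, 21.9 and 27.3 CPM in Zmym2-/- embryos 1 to 6, against 6.70, 2.92, 17.7, 12.1, 19.2 and 16.2 CPM in Zmym2+/+ embryos 1 to 6. Its low values stood in Zmym2-/- embryo 4 and Zmym2+/+ embryo 2, so each genotype held one. The log2 fold change was 0.30 (SE 0.52), with an edgeR adjusted p of 0.855.

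Nog, which encodes the BMP antagonist Noggin, was the only member with a negative difference. It had 9.93, 9.70, 10.1, 14.03, 15.4 and 21.8 CPM in Zmym2-/- embryos 1 to 6, against 53.1, 14.8, 13.2, 79.2, 11.5 and 10.4 CPM in Zmym2+/+ embryos 1 to 6. Zmym2+/+ embryos 1 and 4 stood far above the other 4, which lay within the Zmym2-/- range. The log2 fold change was -1.17 (SE 0.50), with an edgeR adjusted p of 0.389.

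The exact permutation test on RPKM, with 0.1 RPKM added before logarithms, likewise called none of the 6. The two-sided exact p ran from 0.251 for Chrd to 0.677 for Shh, where 0.00216 is the smallest that 6 against 6 embryos allow. The differences on the log2(RPKM + 0.1) scale were 1.09 for Noto, 0.82 for Chrd, 0.62 for Foxa1, 0.29 for Shh, 0.27 for Foxa2 and -0.63 for Nog.

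How far single embryos carried these differences was then measured. Zmym2-/- embryos 5 and 6, singled out on their values, exceeded the other 10 embryos for 5 of the 6 members, as they did for 5.77% of all genes. These 2 of 6 embryos held 89.2% of the summed CPM of Noto in the Zmym2-/- group and 79.8% of Chrd. They also held 61.7% of Foxa2 and of Foxa1, 53.4% of Shh and 45.9% of Nog. Their mean was 12.1 times that of the Zmym2+/+ embryos for Noto and 7.12 times for Chrd, but 2.45 times for Foxa2, 2.89 times for Foxa1 and 1.97 times for Shh. Without them every positive log2 fold change turned negative, to -0.45 for Noto, -0.15 for Chrd, -0.40 for Foxa2, -0.16 for Foxa1 and -0.22 for Shh, with edgeR adjusted p-values of 0.58 or more. On the log2(RPKM + 0.1) scale the difference turned negative for Noto, Chrd, Foxa2 and Shh but not for Foxa1, for which it was 0.045. Without embryo 6 alone, the log2 fold change was 1.11 for Noto, 0.50 for Chrd and -0.043 for Foxa2.

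The negative difference of Nog rested on the Zmym2+/+ side. Without Zmym2+/+ embryos 1 and 4, an alternative chosen after seeing the data, the log2 fold change of Nog was 0.10, with an edgeR adjusted p of 0.978. Without Zmym2-/- embryos 5 and 6 it was -1.47.

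**Figure D2:**
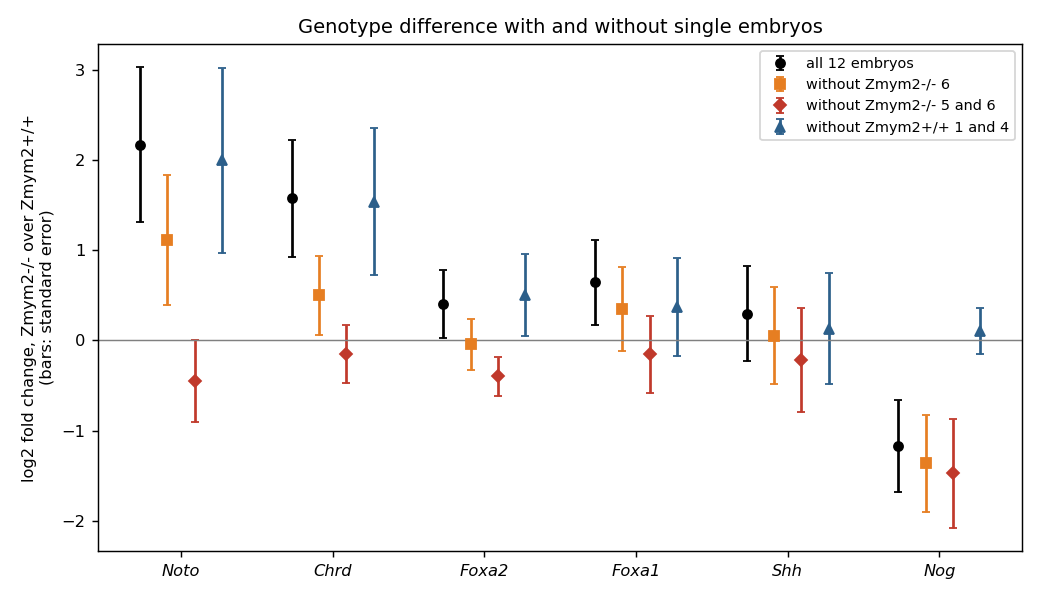
Log2 fold change of each member, Zmym2-/- over Zmym2+/+ (vertical axis, bars give the standard error), fitted on all 12 embryos (black), without Zmym2-/- embryo 6 (orange), without Zmym2-/- embryos 5 and 6 (red) and without Zmym2+/+ embryos 1 and 4 (blue). The red points of Noto, Chrd, Foxa2, Foxa1 and Shh lie below 0, and the blue point of Nog lies at 0.10.

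Littermates gave unlike pictures. Zmym2-/- embryo 6 had 11.35 times the Noto CPM of its Zmym2+/+ littermate, embryo 3, and 9.67 times its Chrd. Zmym2-/- embryo 5 had 13.3 times the Noto and 4.67 times the Chrd of its littermate, Zmym2+/+ embryo 2. Zmym2-/- embryo 4 shared a litter with Zmym2+/+ embryos 1 and 4, the ones with high Nog, and had 0.264 and 0.177 times their Nog and 0.299 and 0.166 times their Shh. Its Noto was 2.01 times that of Zmym2+/+ embryo 1 and 0.389 times that of Zmym2+/+ embryo 4. With litter as a block over these 7 embryos, the log2 fold change was 2.36 for Noto, 1.94 for Chrd and -0.52 for Nog, and edgeR called no member.

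Names began with H or J, which the labels do not explain, and each series held both genotypes. For the H embryos (2 Zmym2-/- and 4 Zmym2+/+) the log2 fold change was 2.39 for Noto, 1.18 for Chrd and -1.41 for Nog. For the J embryos (4 Zmym2-/- and 2 Zmym2+/+) it was 1.74 for Noto, 1.88 for Chrd and 0.12 for Nog. Noto and Chrd thus differed in the same direction in both series, each of which held 1 of the 2 high embryos, whereas Nog did not. Both high embryos were female, and the 3 Zmym2-/- males came from 1 litter. In females alone the log2 fold change was 2.72 for Noto and 2.18 for Chrd, and in males alone 0.12 and -0.19. The difference between the sexes in the genotype effect, males minus females, was -2.62 (SE 1.22) for Noto with an edgeR adjusted p of 0.229, and -2.42 (SE 0.84) for Chrd with an edgeR adjusted p of 0.123. edgeR called no gene in this comparison (0%), with 22.3% of all genes at an unadjusted p under 0.05, whereas DESeq2 called 2539 genes, of the members Chrd alone (DESeq2 adjusted p = 0.0377).

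Other genes of the node moved with Zmym2-/- embryos 5 and 6. Of the 13 measured genes of a list for the node and left-right axis, none passed the test. At an unadjusted p under 0.05 in edgeR, 5 were higher and 1 was lower, where 12% of all genes passed in either direction. The median log2 fold change was 0.60, against 0.025 over all genes. In 6 of the 13, embryos 5 and 6 stood above the other 10. Foxj1, the master factor of motile cilia, had 9.81 and 82.5 CPM in these embryos, against at most 1.94 CPM in the others. Pkd1l1, a channel subunit of node cilia, had 6.34 and 17.8 CPM there and at most 2.25 CPM elsewhere. Dand5, a Nodal antagonist of the node's border, had 9.44 and 6.34 CPM there and at most 3.10 CPM elsewhere.

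The notochord list gave fewer such genes. Of its 9 measured genes, none passed the test and in 3 the same embryos stood highest. T (Brachyury), which marks both streak and notochord, had 102 and 231 CPM in embryos 5 and 6, against at most 62.9 CPM in the others. The other 2 of these 3, Foxj1 and Bicc1, also belong to the node list. The RNA-binding protein Bicc1 had 33.1 and 52.3 CPM, against at most 25.5 CPM. Sox5 and Sox6, factors of the notochord sheath and cartilage, had 0.891 and 1.48 CPM in embryo 6, below all 10 other embryos, but lay within their range in embryo 5. Sox9, a later notochord and neural crest factor, had 16.0 and 20.7 CPM in these embryos, within the range of the others. None of the 11 floor plate genes stood highest in both embryos.

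Further marker lists were also high in the same embryos, and some shared genes with the lists above. Foxj1 and Dnah11 are on both the node list and that of motile cilia, and T is on both the notochord and the streak list. Of 20 measured markers of motile cilia and multiciliated cells, 15 were highest in embryos 5 and 6, with summed levels of 87.6 and 227 CPM against 22.6 to 37.0 CPM in the other 10. The dynein chain Dnah9 was the one closest to the threshold, with 0.318 to 2.97 CPM in Zmym2-/- embryos against 0 to 0.194 CPM in Zmym2+/+ embryos and an edgeR adjusted p of 0.0531. For Dnah9 every Zmym2-/- embryo, not embryos 5 and 6 alone, thus lay above every Zmym2+/+ embryo, as for 1.03% of all genes. Mcidas, which defines multiciliated cells, was at 0 and 0.196 CPM in embryos 5 and 6. Markers of definitive and gut endoderm summed to 1035 and 1420 CPM in embryos 5 and 6, against 342 to 617 CPM in the other 10, and 7 of their 14 measured genes were highest there. Of these, the BMP and Nodal antagonist Cer1 had 8.47 and 64.4 CPM, against at most 6.33 CPM elsewhere. In contrast, the gut genes Nepn, Pyy and Cldn4 were lowest in embryo 6, as for Nepn with 1.18 CPM against 18.5 to 62.8 CPM in the other 10 and 19.2 CPM in embryo 5. Extraembryonic endoderm markers summed to 6481 and 7352 CPM, against 1658 to 4124 CPM, with 7 of 10 highest in these embryos, among them the yolk sac receptor Cubn. Primitive streak markers summed to 185 and 344 CPM, against 37.9 to 158 CPM, with 3 of 8 genes highest in embryos 5 and 6.

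Markers of erythroid cells, heart, somites and neural tissue summed to 115.5 and 233 CPM in embryos 5 and 6, against 405 to 7723 CPM elsewhere. Of these 11 markers, 4 lay below the other 10 embryos in both embryos 5 and 6 and 6 lay within their range in both. The 4 were the globins Hba-x and Hbb-y and the neural factors Sox1 and Pax6. Hba-x had 5.90 and 5.68 CPM in embryos 5 and 6, with 6.95 CPM in Zmym2+/+ embryo 5 as the next lowest, and Pax6 had 1.09 and 0.257 CPM, against 8.16 to 40.6 CPM. The cardiac myosin Myh7 (20.04 and 4.09 CPM, against 2.56 to 117 CPM) and the somite factor Meox1 (15.9 and 13.6 CPM, against 3.93 to 66.4 CPM) were among those within the range. Of 6 pluripotency markers, 2 were highest in embryos 5 and 6 and the other 4, Sox2, Zfp42, Esrrb and Klf4, lay within the range of the other 10. The 2 were Pou5f1, with 136 and 364 CPM against at most 61.3 CPM, and Nanog, with 5.38 and 17.7 CPM against at most 3.498 CPM. Markers of uterine and oviduct epithelium summed to 86.9 and 23.0 CPM, against 29.1 to 302 CPM. No list held a gene that passed the test. The part of these markers in the levels of Noto, Chrd, Foxa2, Foxa1 and Shh was not tested.

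**Figure D3:**
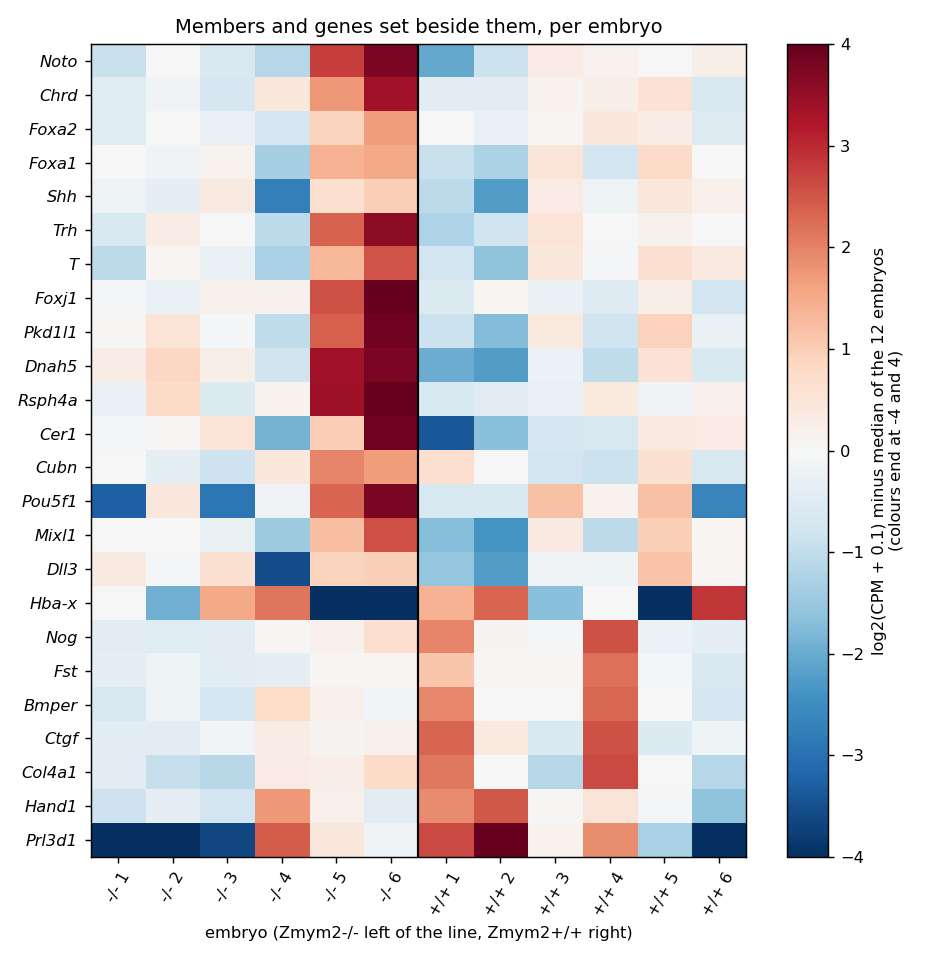
Members and genes set beside them (rows) in each embryo (columns, Zmym2-/- left of the line and Zmym2+/+ right), coloured by log2(CPM + 0.1) minus the median of the 12 embryos, with colours ending at -4 and 4. Columns 5 and 6 of the Zmym2-/- embryos are red from Noto to Dll3 and blue for Hba-x, and the red block of Nog, Fst, Bmper, Ctgf and Col4a1 stands in Zmym2+/+ embryos 1 and 4.

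The genes most like each member, by Pearson's r of log2 CPM over the 12 embryos among 13829 genes with a mean of at least 1 CPM, are given as a description. For Noto they were Trh (0.985), Samd3 (0.959) and 1700003M02Rik (0.953). Trh, the thyrotropin-releasing hormone precursor, had 99.4 and 232 CPM in Zmym2-/- embryos 5 and 6 and at most 28.6 CPM in the others, and without these embryos its r with Noto was 0.92. For Chrd they were Samd3 (0.963), Vrtn (0.958) and Gna14 (0.953), and for Foxa2 they were Spa17 (0.972), Capsl (0.972) and BC023829 (0.967). Foxa1 went most closely with Aldh5a1 (0.965), Mixl1 (0.953) and Mesp1 (0.950), of which Mixl1 and Mesp1 are factors of the streak and its early mesoderm. Shh went most closely with Dll3 (0.964), a Notch ligand of the presomitic mesoderm, 6330416G13Rik (0.962) and Car3 (0.955).

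Nog had other companions, led by Ctgf (0.954), Fst (0.949) and Plod3 (0.947). Zmym2+/+ embryos 1 and 4 had 156 and 329 CPM of Fst, which encodes the activin and BMP antagonist Follistatin, against 46.9 to 76.1 CPM in the other 10 embryos. They had 44.5 and 58.2 CPM of the BMP modulator Bmper, against 7.08 to 19.4 CPM. A list of 10 genes of parietal endoderm and basement membrane, chosen after these values were seen and not tested, summed to 9274 and 10401 CPM in Zmym2+/+ embryos 1 and 4, against 1189 to 3424 CPM in the other 10. For 9 of the 10 genes these 2 embryos were highest, as for the collagen Col4a1 with 2197 and 3166 CPM against at most 875 CPM. Pth1r, Col4a1, Col4a2 and Sparc of this list were also among the genes most like Nog (r of 0.931 to 0.946). The count therefore follows in part from the choice of genes and is a description only. The part of these genes in the level of Nog was not tested.

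Members correlated with each other across embryos, largely through Zmym2-/- embryos 5 and 6. Of 15 pairs, 8 had an adjusted p under 0.05 for Pearson's r (permutation of 100000 resamples, adjusted over the 15 pairs) and 4 for Spearman's rho. The exception in stability was Foxa1 with Shh, at r = 0.88 (permutation p = 8e-05, adjusted 0.0012) and rho = 0.99 (permutation p = 1e-05, the smallest these resamples can give, adjusted 0.00015). Without the 2 embryos farthest from the median of Foxa1, r was 0.90 over 10 embryos. Inside each genotype it was 0.92 for Zmym2-/- and 0.88 for Zmym2+/+ embryos, and r was 0.87 in the H and 0.89 in the J embryos. In contrast, r of Noto with Foxa2 was 0.84 over all embryos (permutation p = 0.00172, adjusted 0.00516; rho = 0.65, permutation p = 0.0264) and 0.32 without the 2 embryos farthest from the median of Noto, which were Zmym2-/- embryos 5 and 6. For Noto with Chrd the values were 0.87 (permutation p = 0.00163, adjusted 0.00516; rho = 0.48, permutation p = 0.116) and 0.27, so both relations rested on these embryos. Over all 12 embryos, no pair with Nog had an adjusted p under 0.05. Within Zmym2-/- embryos, Chrd with Nog did (r = 0.96, permutation p = 0.00833, adjusted 0.0292). In the J embryos Noto, Foxa1 and Shh with Nog did, at r = 0.95, 0.99 and 0.85 (adjusted permutation p = 0.0417 for each). By Spearman's rho none of these pairs did. The adjusted permutation p was 0.22 for Chrd with Nog within Zmym2-/- embryos (rho = 0.77). In the J embryos it was 0.175, 0.125 and 0.175 (rho = 0.83, 0.94 and 0.83), each over 6 embryos. Within Zmym2+/+ embryos and within the H embryos no pair with Nog did.

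**Figure D4:**
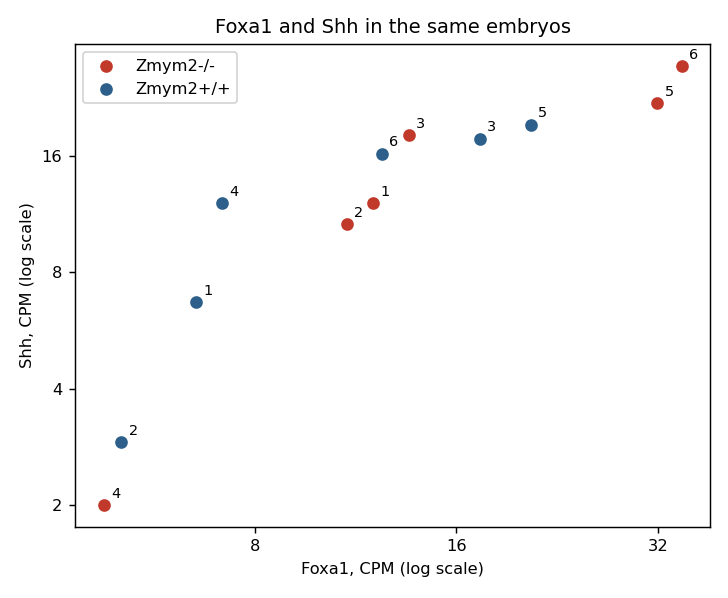
Foxa1 (horizontal) against Shh (vertical) in CPM on log scales, 1 point per embryo with its number, Zmym2-/- in red and Zmym2+/+ in blue. The low end is held by Zmym2-/- embryo 4 (4.77 CPM of Foxa1 and 2.004 CPM of Shh) and Zmym2+/+ embryo 2 (5.06 and 2.92 CPM), and the high end by Zmym2-/- embryos 5 and 6.

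The embryos lowest in Shh and Foxa1 were the highest in markers of decidua and trophoblast, which summed to 1242 CPM in Zmym2-/- embryo 4 and to 1724 CPM in Zmym2+/+ embryo 2, against 107 to 1036 CPM in the other 10. The giant cell hormone Prl3d1 had 94.2 CPM in Zmym2-/- embryo 4 and 330 CPM in Zmym2+/+ embryo 2, and the trophoblast factor Hand1 had 566 and 941 CPM in the same embryos. Dll3 was lowest there too, at 0.978 CPM in Zmym2-/- embryo 4 and 2.59 CPM in Zmym2+/+ embryo 2. The part of these markers in the levels of Shh and Foxa1 was not tested.

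The pathways on which Shh, Chrd and Nog act showed no call between genotypes. All 23 genes of a Hedgehog list were measured, of which 0 passed the test in either direction in edgeR. Of these, 0 had an unadjusted p under 0.05, where 12% of all genes did. The median log2 fold change was 0.15, against 0.025 over all genes. The receptor and target Ptch1 averaged 142 ± 48.3 CPM in Zmym2-/- embryos, against 119 ± 71.0 CPM in the Zmym2+/+ group (SD over 6 embryos in both). The transcriptional effector Gli1 averaged 19.5 ± 7.92 CPM in Zmym2-/- embryos, against 17.2 ± 10.6 CPM in the Zmym2+/+ group. In Zmym2-/- embryos 5 and 6, where Shh was highest, Gli1 was 7.88 and 19.0 CPM, within the range of the other embryos. Nkx6-1, a ventral neural target, was 1.83 and 2.51 CPM there, with 2.28 to 18.2 CPM in the other 10.

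Of 33 genes of a BMP list, 0 passed the test in edgeR. At an unadjusted p under 0.05, 1 was higher and 4 were lower, where 12% of all genes passed in either direction. The median log2 fold change was 0.010. Among the lower genes were Nog, Fst and Bmper, which are antagonists or modulators of BMP or activin and were each highest in Zmym2+/+ embryos 1 and 4, and the 1 higher gene was Chrd. The ligand Bmp4 averaged 39.6 ± 7.27 CPM in Zmym2-/- embryos and 39.3 ± 12.7 CPM in Zmym2+/+ embryos. The targets Id1 (100.4 ± 18.4 CPM in Zmym2-/-, against 100.2 ± 18.6 CPM in Zmym2+/+ embryos) and Msx1 (114 ± 14.5 CPM in Zmym2-/-, against 111 ± 27.2 CPM in Zmym2+/+ embryos) had log2 fold changes of 0.0029 (SE 0.15) and 0.032 (SE 0.16). In the FOXA family, Foxa3 had 10.9 and 14.8 CPM in Zmym2-/- embryos 5 and 6 and at most 5.58 CPM in the others, with a log2 fold change of 0.83 (SE 0.37) and an edgeR adjusted p of 0.399 over all embryos.

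In the cell lines the members were low or not counted. Noto was in neither count table of the lines, with at most 0.018 RPKM in any line, and Shh was counted only in mESCs, with 5 and 1 counts in Zmym2-/- mESCs and 2 and 5 counts in control mESCs. In EBs Shh was at most 0.020 RPKM. The other 4 members were counted in both stages.

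Foxa1 was higher in Zmym2-/- lines at both stages. In mESCs it had 1.28 and 1.48 CPM (44 and 48 counts) in Zmym2-/- lines, against 0.358 and 0.192 CPM (17 and 7 counts) in control lines. The log2 fold change was 2.28 (SE 0.44) with an edgeR adjusted p of 0.00276. The groups did not overlap, but with 2 lines a group this says little. In mESCs the groups of Chrd and Nog did not overlap either, in the other direction, and neither gene passed the test. In EBs it had 3.48 and 3.14 CPM in Zmym2-/- lines, against 1.79 and 1.06 CPM in control lines, with a log2 fold change of 1.23 (SE 0.27) and an edgeR adjusted p of 0.0162. Foxa1 was the 1 member called among 5 tested in mESCs, where 19.2% of all genes were called (10.3% higher and 8.94% lower), and among 4 in EBs, where 7.39% were (4.62% higher and 2.77% lower). The call in EBs was lost without control line 2 (edgeR adjusted p = 0.0964) and without Zmym2-/- line 1 (edgeR adjusted p = 0.0557), and that in mESCs was kept without any 1 line. Each line is 1 clone, so with 2 clones a group the effect of a clone and that of the genotype cannot be fully told apart.

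The other members did not pass the test between genotypes in the lines. Foxa2 had 0.204 and 0.433 CPM in Zmym2-/- mESCs against 0.210 and 0.110 CPM in control mESCs, and 0.707 and 0.635 CPM in Zmym2-/- EBs against 1.21 and 0.517 CPM in control EBs. Chrd had 3.43 and 3.18 CPM in Zmym2-/- mESCs against 4.02 and 4.23 CPM in control mESCs, with a log2 fold change of -0.32 (SE 0.22) and an edgeR adjusted p of 0.373. Nog had 0.407 and 0.0927 CPM in Zmym2-/- mESCs against 0.547 and 0.467 CPM in control mESCs, all from 26 counts or fewer.

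From mESCs to EBs, 1 of the 4 members changed in Zmym2-/- lines, where 45.2% of all genes were called (23.1% higher and 22.1% lower in EBs), and 3 of 4 in control lines, where 46.6% were (23% higher and 23.6% lower). At an unadjusted p under 0.05 these shares were 51.3% in Zmym2-/- and 52.2% in control lines. In Zmym2-/- lines Foxa1 was higher in EBs (log2 fold change 1.21, SE 0.31, edgeR adjusted p = 0.00643), while Foxa2 (1.03, edgeR adjusted p = 0.154) and Chrd (-0.52, edgeR adjusted p = 0.0874) did not pass. Without Zmym2-/- EB line 2, Chrd passed as well (-0.81, edgeR adjusted p = 0.0332), so that 2 of the 4 did. It also passed with the sample number as a replicate block within each genotype (-0.54, edgeR adjusted p = 0.0479), although the labels do not state that a number stands for the same clone at both stages. In control lines Foxa1 was higher in EBs (2.26, SE 0.39, edgeR adjusted p = 0.000409), as was Foxa2 (2.31, SE 0.59, edgeR adjusted p = 0.00569), and Chrd was lower (-0.91, SE 0.23, edgeR adjusted p = 0.00567). The test of the difference between genotypes in this change called none of the 4 in edgeR and none in DESeq2, and 0 had an unadjusted edgeR p below 0.05. Of all genes, 5.25% were called (3.07% higher and 2.18% lower) and 19.7% had such a p. For Foxa1 the change in Zmym2-/- lines minus that in control lines was -1.05 (SE 0.51, edgeR adjusted p = 0.275). The call of Foxa2 in control lines was lost without control EB line 1, at an edgeR adjusted p of 0.0914.

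**Figure D5:**
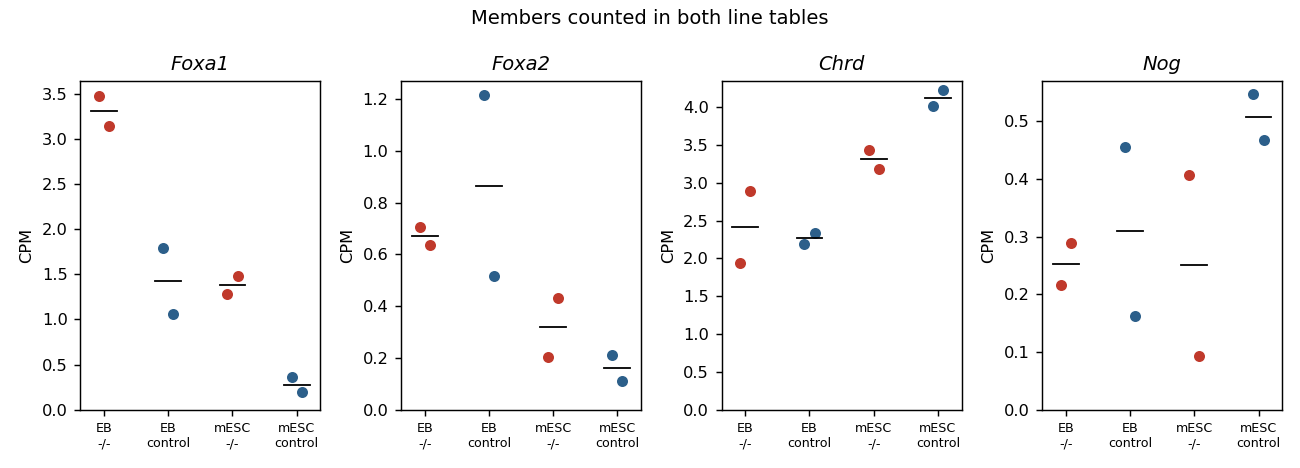
CPM (vertical axes, from 0) of the 4 members counted in both line tables, with 1 point per line and the mean of the 2 lines as a bar, in Zmym2-/- EBs, control EBs, Zmym2-/- mESCs and control mESCs from left to right; EB and mESC tables were scaled separately. Both Zmym2-/- points of Foxa1 lie above both control points at each stage, and in mESCs both Zmym2-/- points of Chrd and of Nog lie below both control points.

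Some genes of the BMP and Hedgehog lists passed the test in the lines. Of the BMP list, 3 of 31 genes were higher and 6 lower in Zmym2-/- mESCs (edgeR, adjusted p under 0.05), where 10.3% of all genes were higher and 8.94% lower, with a median log2 fold change of -0.32 against 0.015 over all genes. The ligand Bmp4 averaged 7.60 CPM in Zmym2-/- and 19.0 CPM in control mESCs (log2 fold change -1.32, SE 0.17, edgeR adjusted p = 0.000166), and the target Id3 averaged 62.3 CPM in Zmym2-/- and 22.0 CPM in control mESCs (1.499, SE 0.11, edgeR adjusted p = 1.75e-06). Of the Hedgehog list, 2 of 21 genes were higher and 4 lower against the same shares of all genes, among the lower ones the effector Gli2 with 35.8 CPM in Zmym2-/- and 79.4 CPM in control mESCs (-1.15, SE 0.10, edgeR adjusted p = 4.45e-06). In EBs, 3 of 32 BMP genes were higher and 2 lower, and Hedgehog genes gave 0 higher and 1 lower of 21, where 4.62% of all genes were higher and 2.77% lower. Among the 3 higher BMP genes was Fst, at 59.5 CPM in Zmym2-/- and 30.7 CPM in control EBs (0.95, SE 0.11, edgeR adjusted p = 0.000294). Foxj1, high in Zmym2-/- embryos 5 and 6, was lower in Zmym2-/- mESCs, at 3.32 CPM against 9.53 CPM in control mESCs (-1.52, SE 0.19, edgeR adjusted p = 0.000114). It averaged 2.52 CPM in Zmym2-/- and 3.44 CPM in control EBs (-0.43, SE 0.24, edgeR adjusted p = 0.354). Of the motile cilia list, 5 of 17 genes were higher and 2 lower in Zmym2-/- mESCs, Foxj1 among the lower. In EBs 3 of 19 were higher and 0 lower, against the same shares of all genes. Trh, the gene most like Noto in embryos, averaged 684 CPM in Zmym2-/- and 204 CPM in control mESCs (1.74, SE 0.13, edgeR adjusted p = 2.23e-06). In EBs it averaged 1280 CPM in Zmym2-/- and 774 CPM in control lines (0.72, SE 0.16, edgeR adjusted p = 0.0136).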

How the data were processed

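Stranded mRNA libraries of 12 single embryos and 8 cell line samples were used. Per the labels' processing notes and the study's methods, the authors used Trimmomatic (0.34) for trimming, STAR (2.7.8a) for alignment to mm10, Picard (2.9.0) to mark duplicates and HTSeq for counts per gene; the annotation and strand setting are not given in the sources used here. The deposited values are raw counts per gene, a normalized score of the authors beside each count (not used in any result) and RPKM from StringTie (1.3.5). Every gene in the embryo count table had at least 13 counts in total.

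Counts were fitted with edgeR (4.0.16, quasi-likelihood, TMM) over all genes with at least 10 counts, for each comparison with its own samples; p-values were Benjamini-Hochberg adjusted over all genes. DESeq2 (1.42.0) was an alternative. Levels are CPM, and 1 CPM corresponds to 36.1 counts in the shallowest embryo. RPKM were compared with a two-sided exact permutation test. Where only GEO's labels separate samples of a group, p-values measure the spread between those samples. Embryo IDs were matched to GENCODE M21, 22602 of 22729. Scripts were tested on simulated data. Other settings were no or stricter count filters, size factors, sex, name series, litter or replicate number as terms, and each library left out. Members and gene lists were chosen with earlier results of these data known. Genes named were the members, Zmym2, up to 3 genes of each list with the smallest p in embryos, pathway ligands, receptors and targets, and the 3 genes most like each member; T, Mcidas, Sox5, Sox6, Hba-x, Hbb-y, Sox1, Pax6, Myh7, Meox1, Sox2, Zfp42, Esrrb, Nepn, Pyy, Cldn4, Bmper, Col4a1, Gli1 and Gli2 lie outside that rule and were named after their values were seen. Some list genes are not reported here.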

Additional observations from a re-analysis of the deposited data

Results flagged for a closer look

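Of 12 groups of 6 embryos (6 members in 2 genotypes), 1 held an embryo far from the rest by Dixon's test. Zmym2-/- embryo 6 had 30.3 CPM of Chrd, and the gap to the next embryo (9.76 CPM) was 0.719 of the group's range, above the critical value of 0.625. Chance gives such a gap in about 1 of 20 groups. Noto, at 33.4 CPM in the same embryo, did not stand apart by this test because Zmym2-/- embryo 5 was also high.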

How the results depend on the processing

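Under 27 alternatives no member was called between embryo genotypes. Without Zmym2-/- embryos 5 and 6, the log2 fold change was -0.45 for Noto, -0.40 for Foxa2, -0.16 for Foxa1, -0.22 for Shh and -0.15 for Chrd, and with Zmym2+/+ embryos 1 and 4 also left out (chosen after seeing the data) -0.62, -0.29, -0.42, -0.38 and -0.19. Nog was 0.10 without Zmym2+/+ embryos 1 and 4 and 0.12 in the J series, and males alone gave -0.18 for Foxa2 and -0.19 for Chrd. In RPKM without Zmym2-/- embryos 5 and 6, the log2 difference was -0.19 for Noto, -0.26 for Foxa2, -0.20 for Shh and -0.026 for Chrd, while Foxa1 stayed positive at 0.045. With each embryo left out in turn, the log2 fold change ran from 1.11 to 2.41 for Noto, 0.50 to 1.79 for Chrd, 0.35 to 0.89 for Foxa1, -0.043 to 0.55 for Foxa2, 0.052 to 0.53 for Shh and -1.36 to -0.60 for Nog, and the RPKM difference from -0.024 to 0.46 for Foxa2 and -0.086 to 0.78 for Shh. For the sex by genotype interaction, DESeq2 called 1 member, Chrd (-2.39), where edgeR called 0. Over all genes edgeR called 771 higher and 882 lower without Zmym2+/+ embryo 3 and 417 and 318 without Zmym2+/+ embryo 4. It also called 113 and 95 without Zmym2-/- embryo 4, and 703 and 878 with replicate number as a block. Alternatives to this interaction were added after seeing the data. Leaving out 1 embryo gave -2.03 to 0.48 for Nog, -0.98 to 0.28 for Foxa1 and -0.059 to 1.43 for Shh. The cause of these changes was not tested.

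Replicate numbers did not pair the embryos (correlations of same-numbered deviations -0.277 to 0.301). With replicate number as a block, 0 members were called in embryos, the log2 fold change was 1.06 for Noto and 0.66 for Chrd, and the interaction was 0.019 for Foxa1; in the lines, Chrd passed the test from mESC to EB in Zmym2-/- lines (-0.54), so that 2 members did instead of 1. Leaving out 1 line gave 1 to 2 members for that comparison (Chrd -0.81 to -0.25, Nog -0.76 to 1.34), 2 to 3 in control lines (Foxa2 1.56 to 2.88) and 0 to 1 between EB genotypes (Foxa1 0.89 to 1.64, Foxa2 -0.85 to 0.38, Nog -0.87 to 0.59, Chrd -0.22 to 0.35), and -0.60 to 0.76 for Shh in mESCs.

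Of 15 pairs of members, 8 correlated over all embryos at an adjusted p under 0.05 for Pearson's r. The same count was 5 within Zmym2-/- and 0 within Zmym2+/+ embryos, and 0 within the H and 5 within the J series. Without the 2 embryos farthest from the median it was 1. Over all genes, where 116 were higher and 3 lower, DESeq2 called 324 and 32, the replicate block 49 and 0, the litter block 1 and 0, H embryos 1 and 0, J embryos 46 and 1, males 131 and 253, females 11 and 4, and the embryos without Zmym2-/- 5 and 6 gave 76 and 1. In mESCs, Shh could be tested in only 2 of the 4 fits that left out a line, and Shh and Foxa2 did not pass edgeR's own count filter. Depth limits Shh and Nog in mESCs, at 1 to 26 counts.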
